A study of Mus musculus with 18 samples.

Results

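Second-wave Acly knockout (KO) leukemia at the humane endpoint was compared with wild-type (WT) leukemia at the same endpoint. The members are the 3 libraries titled as KO survival, second wave, and the 4 libraries titled as WT survival, 7 of the 18 libraries in the series, and all 14286 of 18953 genes with a mean of at least 10 normalized counts over the 10 survival libraries. Every group received T-cell acute lymphoblastic leukemia (T-ALL) cells that carried a conditional Acly allele, by vein, into sub-lethally irradiated mice; the strain given is C57BL/6. At 48 h after transplant the KO mice were given 3 mg of tamoxifen in corn oil, the trigger of deletion, and the WT mice corn oil alone, so genotype and tamoxifen cannot be told apart. Leukemic spleens were collected at the humane endpoint, pressed to single cells and freed of red blood cells before RNA extraction. The first KO wave (n = 3) shares treatment and endpoint; what separates the waves, which exons are deleted, what drives the recombinase, and whether the libraries are separate mice or derive from 1 primary leukemia are unstated in the labels. If they are not separate mice, the p-values below measure only the spread between libraries. If they are separate mice that carry 1 primary leukemia, the p-values measure the spread between transplants and not between leukemias. The design text speaks of 5 samples per genotype, which the 18 libraries do not match.

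ATP citrate lyase, the product of Acly, splits citrate in the cytosol and nucleus into acetyl-CoA and oxaloacetate. The acetyl-CoA feeds fatty acid and cholesterol synthesis and the acetylation of histones, and Acss2, which makes acetyl-CoA from acetate, is the other main source outside mitochondria. T-ALL is a cancer of immature thymocytes, often driven by activated NOTCH1, and it fills the spleen of transplanted mice.

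Acly itself, on chromosome 11 (100476353 to 100528000, GRCm38), was at 505.2, 568.6 and 655.2 normalized counts in second-wave replicates 1, 2 and 3. It was at 1722.1, 1727.3, 1853.8 and 1485.7 in WT replicates 1 to 4, and at 725.3, 656 and 799.6 in the first wave. All 3 second-wave libraries lay below every WT and every first-wave library. The second-wave mean was 576 ± 75.3 (SD, n = 3), 34.0% of the WT mean of 1697 ± 154 (SD, n = 4), with a log2 fold change of -1.56 (SE 0.17, adjusted p = 0.00155). An exact two-sided permutation test over all 35 divisions of the 7 libraries gave p = 0.0286, the smallest it can give. Messenger RNA from undeleted cells and from undeleted parts of the allele cannot be told apart in gene totals.

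Normalized totals of the 10 survival libraries were 9193000 to 10387000 counts, and spacing of the low values put their depth at about 7900000 to 12700000 reads. Several libraries stood apart on principal components. On the first, WT replicates 1 and 2 were at 78.6 and 67.2 and second-wave replicate 1 at -73.2, against -18.8 to 4.2 elsewhere. Second-wave replicate 1 was also apart on the second (-83.2). Second-wave replicates 2 and 3 were apart on the third (-37.3 and -62.8, against -1.2 to 29.5 elsewhere). The beta chain V segment of the T-cell receptor, which marks clones of T cells, also set libraries apart. Trbv26 held 60.7 to 74.4% of the counts of 19 Trbv genes in the first wave and in WT replicates 1, 2 and 4. WT replicate 3 had 55.8% Trbv5 and 21.8% Trbv26. Second-wave replicate 1 had 34.1% Trbv1, 27.7% Trbv17 and 26.7% Trbv26, replicate 2 had 53.4% Trbv26 and 27.0% Trbv1, and replicate 3 had 95.0% Trbv1. Trbv1 was thus at 27.0 to 95.0% in the second wave and at 7.3 to 19.3% in the other 7 libraries, and the 3 second-wave libraries differed among themselves. Mitochondrially encoded genes held 2.87 to 3.3% of counts in the second wave and 2.09 to 3.18% in WT. The part of this difference in the results below was not tested, and counts without the libraries that stood apart are given.

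**Figure D1:**
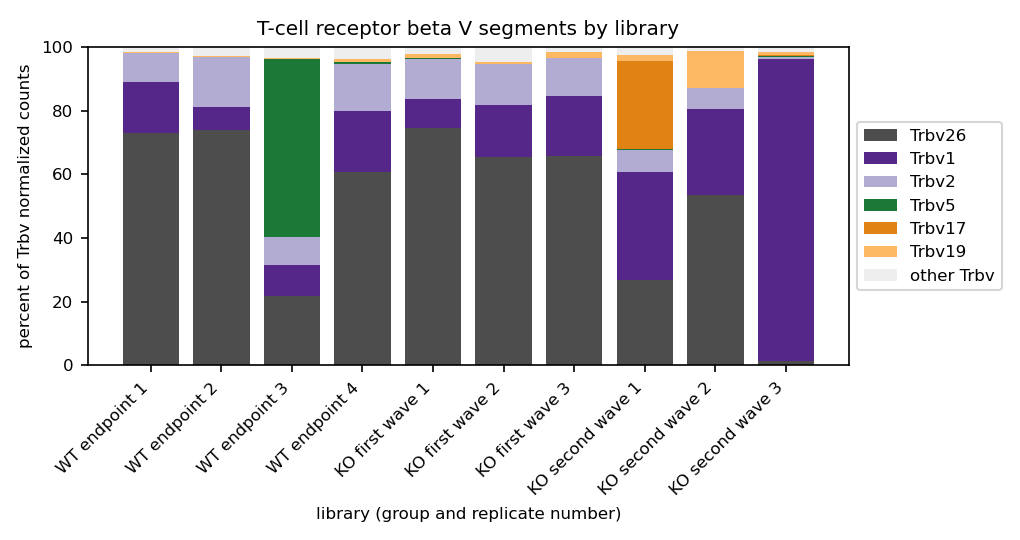
Share of T-cell receptor beta V segment (Trbv) normalized counts, in percent on the y axis, for each of the 10 survival libraries on the x axis; each colour is 1 segment. Trbv26 fills 60.7 to 74.4% of the bar in 6 libraries, 55.8% of WT replicate 3 is Trbv5, and 95.0% of second-wave replicate 3 is Trbv1.

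Markers of T-ALL blasts and thymocytes summed to 8838 to 10078 CPM (normalized counts scaled to a common library total) in the second wave and 6678 to 11461 in WT, overlapping ranges, with 0 of 11 tested markers past the threshold. Markers of B cells did not overlap: they summed to 100.5 to 171.8 CPM in the second wave, 173.9 to 247.2 in WT and 178.2 to 215.4 in the first wave. Markers of NK cells ranged from 48.4 to 70.1 against 84.3 to 108.3 in WT and 85.3 to 97.4 in the first wave. Of 13 listed NK-cell markers 5 were tested and 0 passed the threshold, with 4 negative and 1 positive. Neutrophil markers ranged from 43.4 to 63.8 against 41.4 to 205.4, with WT replicates 1 and 2 highest (205.4 and 131.2). In bulk spleen RNA, fewer cells of a type and less RNA per cell cannot be told apart.

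In the whole comparison 32 of 14286 genes passed limma's adjusted p threshold of 0.05 (0.224%). Of these, 7 were higher in the second wave (0.049%) and 25 lower (0.175%), and 30 changed at least 2-fold. The groups did not overlap for any of the 32, against 1380 of all genes tested (9.66%), 720 with the second wave above WT (5.04%) and 660 with it below (4.62%). At an unadjusted p under 0.05 there were 1857 genes (13%), 942 higher and 915 lower. The median log2 fold change of all genes was -0.009. The count was 14 without WT replicates 1 and 2 and, in an alternative chosen after seeing the data, 127 without second-wave replicate 3 and WT replicate 3.

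With 1 library left out in turn, the count was 15 without WT replicate 2, 19 without WT replicate 1 and 140 without WT replicate 3. It was 20, 45 and 61 without second-wave replicates 1, 2 and 3, and 21 without first-wave replicate 1 or replicate 2. All 32 genes remained among the 140. The calls of 14 genes held with any 1 library left out, among them Acly, Ccnd1, Ccng2, Gmfg, Gpr83, H2-Q7, Nlrc5, Pnn, Sgip1, Syt14, Tubb2a, Tubb2b and Zfyve28. Of the other 18 calls, 17 were lost without WT replicate 2, 15 without second-wave replicate 1 and 14 without WT replicate 1.

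**Figure D2:**
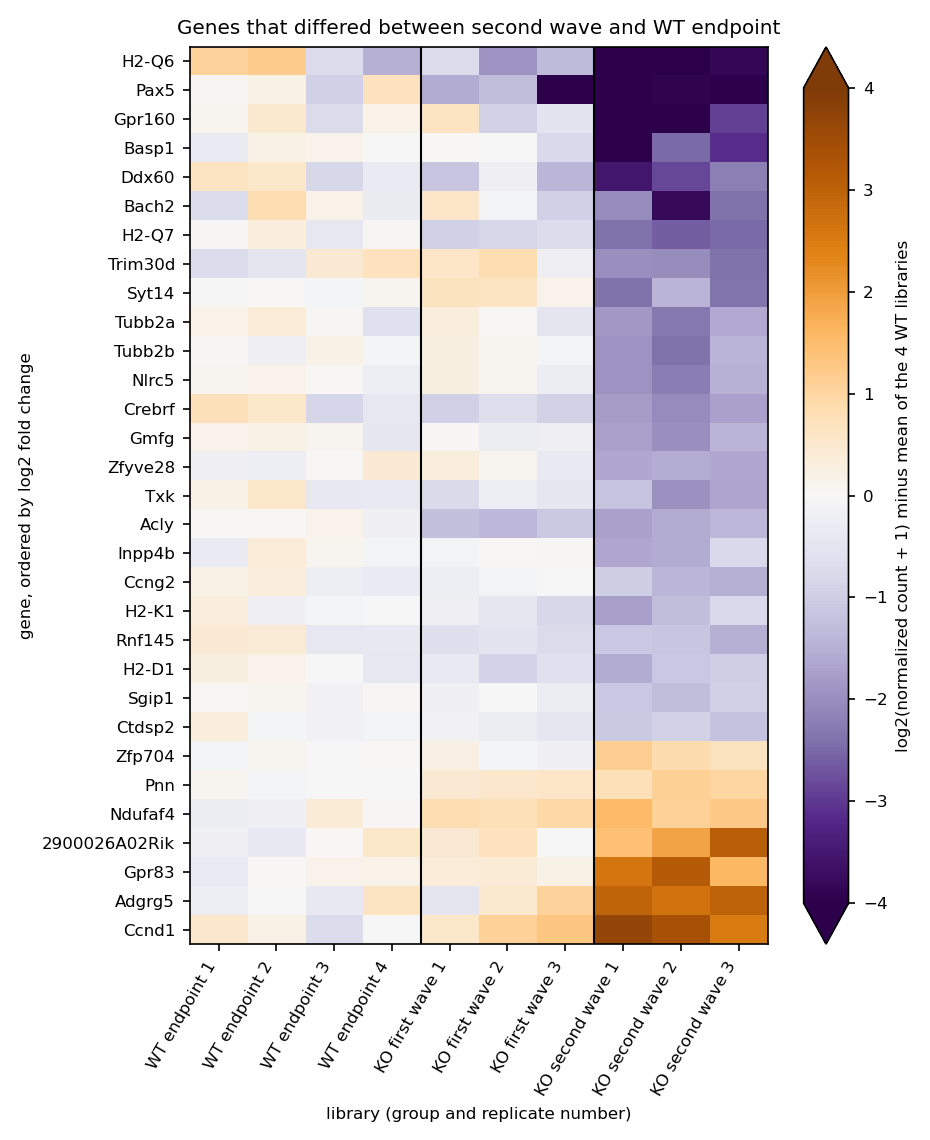
Level of 31 of the genes past the threshold (rows, ordered by log2 fold change) in the 10 survival libraries (columns), as log2(normalized count + 1) minus the mean of the 4 WT libraries; colours saturate at a difference of 4 in either direction. The 3 second-wave columns are purple for 24 genes and orange for 7, and the first-wave columns stay pale for most.

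Genes of MHC class I, the complex that shows peptides from inside the cell to cytotoxic T cells, made up the group with the most members past the threshold. Of 18 tested genes of class I presentation, 5 fell, 0 rose and 13 did not pass. The 5 were the classical heavy chains H2-K1 and H2-D1, the nonclassical heavy chains H2-Q6 and H2-Q7, and Nlrc5, a transactivator that switches on class I promoters. The list's median log2 fold change was -0.27, beside -0.009 for all genes, and 13 of 18 members were negative. For 8 of the 18, every second-wave library was below every WT library, as it was for 4.62% of all genes tested. Without second-wave replicate 1, and without WT replicates 1 and 2, the members past the threshold were 2, H2-Q7 and Nlrc5, and the medians were -0.36 and -0.37.

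Class I promoters are known to carry a kappa B element, an interferon-response element and the X and Y boxes through which NLRC5 acts. The stretch that holds them is shown for the called H2-K1, H2-Q7 and H2-Q6. It is also shown for H2-Q4, which was lower too but did not pass. The sequences are RefSeq's (GRCm38.p6), 5′ to 3′ on the gene's strand, upstream of the RefSeq start. Capitals mark GGGATTCC (kappa B core), TTTCACTT (core of the interferon element), TGACG (core of the X2 box) and ATTGG or its complement CCAAT (Y box), and none of these matches overlap. H2-K1 is at chr17:34000355-34000463 (minus strand), H2-Q7 at chr17:35439017-35439147, H2-Q6 at chr17:35424672-35424803 and H2-Q4 at chr17:35379458-35379570 (plus strand).
H2-K1: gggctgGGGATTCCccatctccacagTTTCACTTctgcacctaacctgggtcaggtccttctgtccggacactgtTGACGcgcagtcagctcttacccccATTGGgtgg
H2-Q7: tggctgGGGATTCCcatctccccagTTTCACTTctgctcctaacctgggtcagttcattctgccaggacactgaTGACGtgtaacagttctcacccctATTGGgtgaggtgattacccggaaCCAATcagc
H2-Q6: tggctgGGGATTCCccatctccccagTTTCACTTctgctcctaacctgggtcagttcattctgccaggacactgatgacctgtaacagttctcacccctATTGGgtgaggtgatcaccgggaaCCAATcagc
H2-Q4: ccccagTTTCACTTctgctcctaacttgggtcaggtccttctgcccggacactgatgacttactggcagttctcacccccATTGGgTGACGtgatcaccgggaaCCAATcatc
The stretches are alike in layout, and differ in that H2-Q4 had no kappa B core here, H2-Q6 no TGACG, and H2-Q4 its TGACG after rather than before the first Y box. Among all 32851 RefSeq promoter windows (250 bases before to 50 after the start), counting both strands, 1.06% held GGGATTCC, 1.60% TTTCACTT, 20.8% TGACG and 37.4% ATTGG. In all, 5 windows held GGGATTCC, TTTCACTT and ATTGG together, and they belonged to H2-D1, H2-K1, H2-Q6 and H2-Q7, all 4 of which fell. Of the 32 called genes 27 had a window; Ccnd1, Nlrc5 and Tubb2b were among those with none. The motifs were chosen with the calls known, so their match to called class I genes is not a test. A match is a description of letters, not of a bound site.

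H2-Q7 (chromosome 17, 35439155 to 35443773) had the smallest adjusted p of all genes. It was at 220.5, 188.2 and 203.6 normalized counts in the second wave, 1180.2, 1444.7, 866.7 and 1181.0 in WT and 596.4, 652.7 and 712.4 in the first wave. The 3 groups did not overlap, with the first wave between the others. The second-wave mean was 204 ± 16.1 (SD, n = 3), 17.5% of the WT mean of 1168 ± 236 (SD, n = 4), a log2 fold change of -2.49 (SE 0.20, adjusted p = 7e-05).

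H2-Q6 was at 0, 0 and 3.64 normalized counts in the second wave and at 136.6, 152.1, 38.6 and 22.5 in WT, where replicates 1 and 2 were highest. Its log2 fold change of -5.32 (SE 0.82, adjusted p = 0.0114) depends on the 1 added before the logarithm, since second-wave values are near 0: with 5 added it was -3.58 and with 0.5 it was -6.03. H2-Q6 and H2-Q7 are near-identical copies between which reads can be split, so the values of each are uncertain. Their sum was 205 ± 16.2 (SD, n = 3) against 1256 ± 286 (SD, n = 4), 16.4% of WT (exact permutation p = 0.0286, the smallest possible).

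Nlrc5 (chromosome 8, 94434356 to 94527272) was at 116.7, 92.6 and 157.6 in the second wave, 479.9, 485.2, 446.1 and 375.5 in WT and 530.7, 482.5 and 368.4 in the first wave. Every second-wave library was below every library of both other groups. The log2 fold change was -1.89 (SE 0.24, adjusted p = 0.00345).

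H2-D1 was at 346.9, 473.5 and 526.2 in the second wave and 1255.9, 1146.9, 1017.3 and 778.3 in WT (log2 -1.22, SE 0.22, adjusted p = 0.0365). H2-K1 was at 293.3, 418.1 and 579 against 1248.5, 863.2, 951 and 994 (log2 -1.28, SE 0.24, adjusted p = 0.0480). For H2-D1 and H2-K1 second-wave replicate 1 was the lowest library, and replicate 3 reached into the first-wave range for H2-K1 only. Without second-wave replicate 1 their adjusted p rose to 0.153 and 0.166, without WT replicate 2 to 0.141 and 0.0960, and without WT replicate 1 to 0.104 and 0.137. The call of H2-Q6 was also lost without each of these libraries (0.0532, 0.0758 and 0.0565), while H2-Q7 and Nlrc5 kept theirs. Of the 10 fits with 1 library left out, H2-D1 lost its call in 7 and H2-K1 in 8.

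Other parts of the class I route did not pass. B2m, the invariant light chain, was at 11813.7, 12707.8 and 10309.7 against 14333.7, 14742.0, 17834.8 and 12529.2 in WT (log2 -0.35, SE 0.14, adjusted p = 0.327), and the ranges overlapped. Tap1, a subunit of the peptide transporter, was at log2 -0.73 (SE 0.22, adjusted p = 0.202) and H2-Q4 at -0.76 (SE 0.26, adjusted p = 0.241). H2-T24, another nonclassical heavy chain, was at 0.67 (SE 0.24, adjusted p = 0.269). Sums of B-cell and NK-cell markers were also lower in the second wave than in WT, and their part in the class I results was not tested. In the first wave those sums (178.2 to 215.4 and 85.3 to 97.4 CPM) lay within the WT range.

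**Figure D3:**
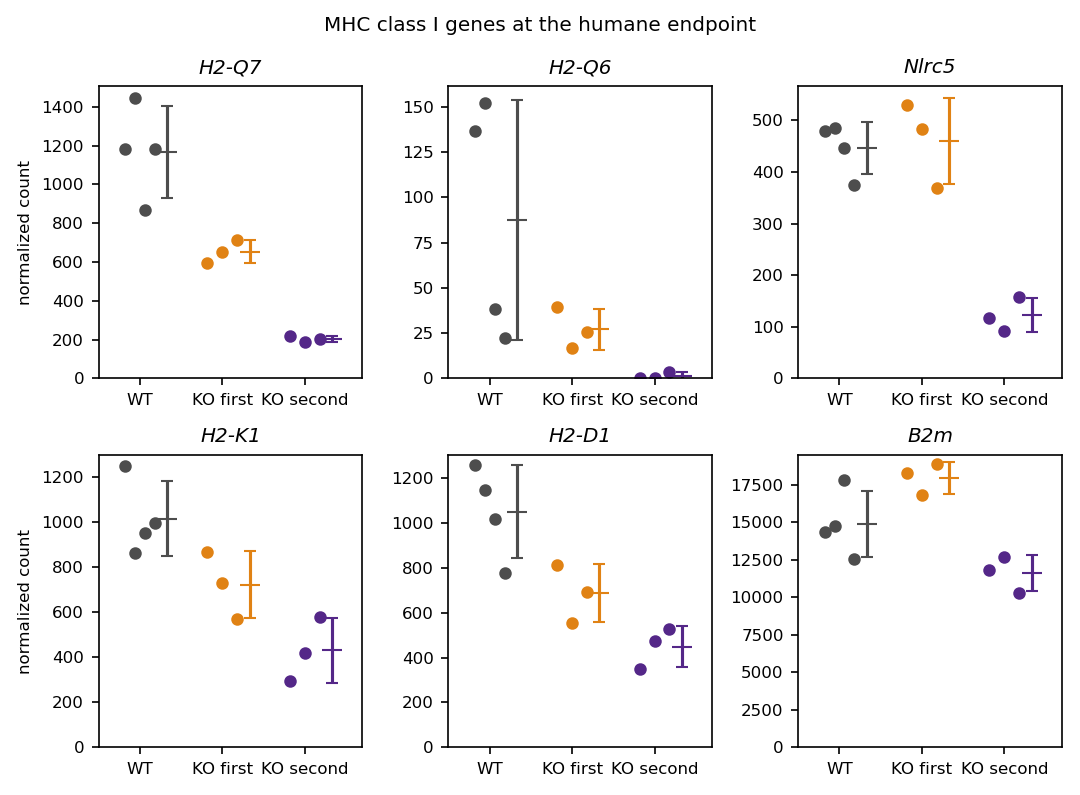
Normalized counts (y axis, linear from 0) of 6 MHC class I genes in the WT endpoint, KO first-wave and KO second-wave libraries (x axis); each point is 1 library, and the bar to its right is the mean with 1 SD. H2-Q7 shows 3 separate groups, Nlrc5 is low only in the second wave of these 3 groups, and the B2m ranges of second wave and WT overlap.

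Interferon-response genes had no member past the threshold. Of 36 tested genes 29 were negative and 7 positive, with a median of -0.43, and for 8 all second-wave libraries were below all WT libraries (4.62% of all genes tested). Gbp2, a guanylate-binding GTPase, was at 145.2, 95.7 and 76.8 against 253, 200.6, 292.2 and 253.7 (log2 -1.27, SE 0.27, adjusted p = 0.0749). Rtp4, a Golgi chaperone, was at -1.39 (adjusted p = 0.165), Stat2, a transducer of type I interferon signals, at -1.09 (adjusted p = 0.194) and Trim30a at -0.80 (adjusted p = 0.195). A pair of called genes outside that list belong to families known for interferon induction. The share of such genes among all genes tested was not counted. Ddx60, an RNA helicase of antiviral sensing, was at 13.7, 22.2 and 35.7 against 262.2, 245.2, 94.2 and 132.7 (log2 -2.87, SE 0.46, adjusted p = 0.0170). Trim30d, a TRIM-family gene, was at 37.3, 36.1 and 27.9 against 92.6, 107.8, 207.1 and 247.5 (log2 -2.13, SE 0.39, adjusted p = 0.0378). Ddx60 was lost without second-wave replicate 1 (adjusted p = 0.0803), WT replicate 1 (0.0635) or WT replicate 2 (0.0864), and Trim30d was lost in 8 of the 10 fits with 1 library left out (highest 0.0917). MHC class II genes, carried mainly by B cells and other presenting cells, had 0 of 9 past the threshold, a median of -0.69 and 8 negative, with H2-Eb1 at -1.20 (adjusted p = 0.234).

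Ccnd1, which encodes cyclin D1, the partner of CDK4 and CDK6 in G1, had the largest increase among the genes past the threshold. It was at 721.6, 572.5 and 323.9 normalized counts in the second wave, 78.8, 63.8, 33.8 and 55.1 in WT and 80.5, 118.4 and 138.5 in the first wave. The lowest second-wave library was above the highest of all 7 others. The means were 539 ± 201 (SD, n = 3) and 57.9 ± 18.8 (SD, n = 4), a 9.32-fold ratio, with a log2 fold change of 3.18 (SE 0.36, adjusted p = 0.00188). Of 20 tested G1 cyclins, kinases and inhibitors Ccnd1 alone passed, 0 fell, and the median was -0.02. Cdkn1b, the inhibitor p27, was at -0.61 (adjusted p = 0.168), E2f3, a transcription factor of S-phase entry, at 1.00 (adjusted p = 0.220), Rbl2, a pocket protein, at -0.92 (adjusted p = 0.231) and Ccnd3, the D cyclin of thymocytes, at -0.53 (adjusted p = 0.340). Ccnd1 is also on the list of oestrogen-response genes, of which 1 of 13 rose and 0 fell (median 0.14). Tamoxifen is a ligand of oestrogen receptors and was given to the mice of both KO waves and not to WT. In the first wave Ccnd1 was at 80.5 to 138.5, above the WT range of 33.8 to 78.8. The part of tamoxifen was not tested. Ccng2, an unconventional cyclin linked to cell-cycle arrest, fell. It was at 1306.6, 1001.3 and 923.2 against 3040.9, 3306.9, 2229.1 and 2103.0 in WT, with no overlap (log2 -1.30, SE 0.19, adjusted p = 0.00822). Lists of DNA replication (33 genes, median 0.07) and of G2 and mitosis (29 genes, median -0.21, 23 negative) had 0 genes past the threshold. Cenpf, a kinetochore protein, was at -0.79 (adjusted p = 0.178).

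A pair of G protein-coupled receptors rose with Ccnd1. Adgrg5, an adhesion receptor, was at 221, 184.1 and 226.7 normalized counts in the second wave and 23.4, 27.5, 21.2 and 43.6 in WT (7.29-fold, log2 2.87, SE 0.43, adjusted p = 0.00822). Its second-wave libraries lay close together, above all first-wave libraries (19.5, 39.7 and 58.4). Without second-wave replicate 1 its adjusted p was 0.0541. Gpr83, a receptor known from regulatory T cells and brain, was at 475.1, 684 and 232.3 against 60.2, 77.5, 84.7 and 86.0 (6.02-fold, log2 2.45, SE 0.34, adjusted p = 0.00625). Another receptor gene moved the other way: Gpr160, an orphan receptor, was at 0, 0.587 and 3.40 against 34.6, 44.8, 18.7 and 36.1 (log2 -4.11, SE 0.73, adjusted p = 0.0319). That fold change depends on the added 1, being -2.60 with 5 added and -4.66 with 0.5, and its call was lost in 8 of the 10 fits with 1 library left out (highest adjusted p = 0.149, without WT replicate 2).

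Class II beta-tubulins fell while the rest of the tubulin list did not pass. Of 13 tested tubulin genes 2 fell, 0 rose, and the median was -0.05. Tubb2b was at 209.6, 149.8 and 296 in the second wave, 823.1, 694.2, 923.3 and 751.9 in WT and 953.4, 848.5 and 744 in the first wave (log2 -1.91, SE 0.23, adjusted p = 0.00229). Tubb2a, its neighbour on chromosome 13 (34074274 to 34078007, with Tubb2b at 34126748 to 34130466), was at 113.5, 82.7 and 133.6 against 463.8, 530.2, 425.4 and 277.4 (log2 -1.93, SE 0.29, adjusted p = 0.00822). All second-wave libraries were below all others for both genes. The copies are nearly identical, so the split between them is uncertain; summed, they were at 328 ± 98.6 (SD, n = 3) against 1222 ± 138 (SD, n = 4), 26.9% of WT (exact permutation p = 0.0286, the smallest possible).

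Syt14, Gmfg, Sgip1 and Zfyve28, which are on none of the lists, fell. Syt14, a synaptotagmin of vesicle traffic, was at 129.2, 255 and 132.8 in the second wave, 670.4, 691.6, 645.6 and 739.6 in WT and 1091.0, 1058.5 and 750.2 in the first wave. It fell by 2.06 on the log2 scale (SE 0.25, adjusted p = 0.00229), to 25.1% of WT. Gmfg, glia maturation factor gamma, a debranching factor of actin networks in blood cells, was at 147.9, 125.1 and 183.1 against 546.9, 575, 524.8 and 362.8 (log2 -1.71, SE 0.23, adjusted p = 0.00523). Sgip1, a factor of clathrin-mediated endocytosis, was at 1183.1, 1054.4 and 1307.7 against 2572.3, 2668.5, 2307.2 and 2608.5 (log2 -1.11, SE 0.15, adjusted p = 0.00523). Zfyve28, a FYVE-domain protein of endosomes, was at 159.4, 167.7 and 157.8 against 430.7, 426.3, 496.7 and 665.7 (log2 -1.61, SE 0.23, adjusted p = 0.00821). None of the 4 overlapped with WT or with the first wave.

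**Figure D4:**
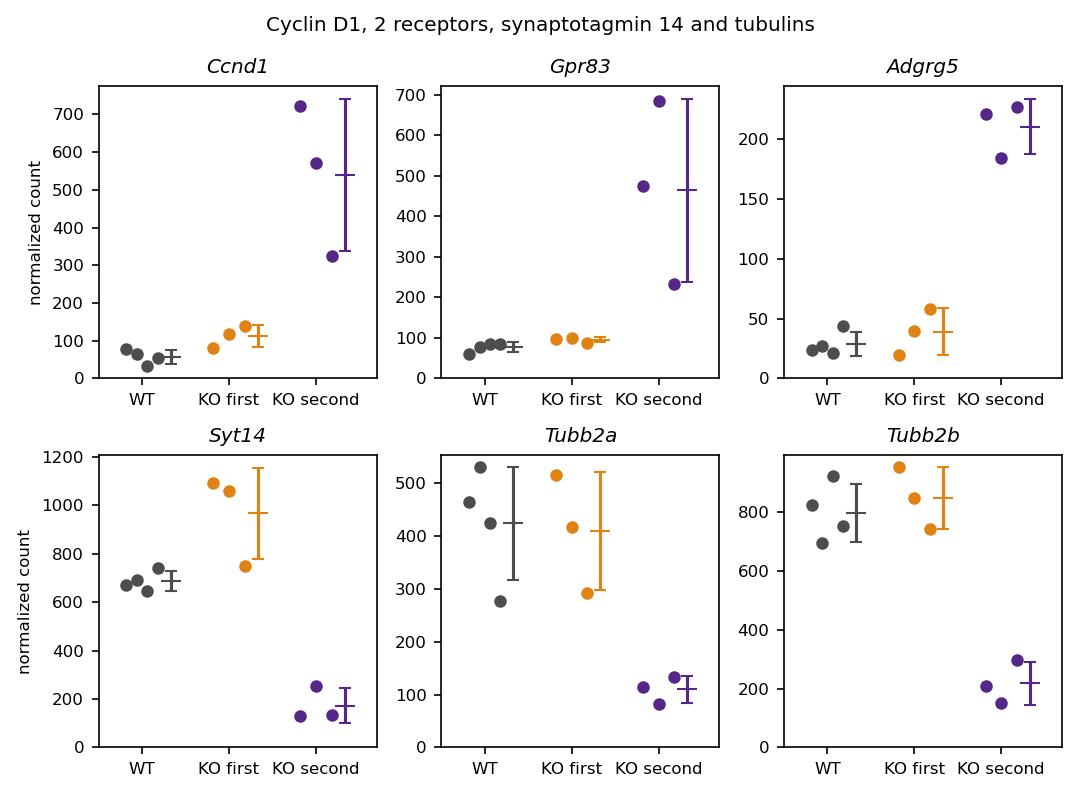
Normalized counts (y axis, linear from 0) of 6 genes in the WT endpoint, KO first-wave and KO second-wave libraries (x axis); each point is 1 library, and the bar beside it is the mean with 1 SD. Ccnd1, Gpr83 and Adgrg5 are highest in the second wave, and Syt14, Tubb2a and Tubb2b are lowest there. First-wave Ccnd1 lies between WT and the second wave.

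Pax5 came near 0 in the second wave, and Bach2 fell without coming near 0. Pax5, the transcription factor that fixes B-cell identity, was at 0, 3.18 and 1.85 against 64.4, 73.2, 31.8 and 103.8 in WT and 20.5, 25.3 and 2.91 in the first wave (log2 -4.81, SE 0.81, adjusted p = 0.0239), with -3.38 when 5 was added before the logarithm and -5.28 when 0.5 was. Of 12 tested B-cell markers Pax5 alone fell, 0 rose, 10 were negative, and the median was -0.89. Among the others, Ms4a1 (CD20), a defining B-cell marker, was at 67.5, 37.8 and 24.3 against 114.4, 143.3, 90.1 and 62.9 (log2 -1.29, adjusted p = 0.216). The part of B cells in the Pax5 result was not tested. Bach2, a repressor active in B cells and in T cells, was at 86.4, 24.8 and 66.8 against 219.6, 626.6, 403.7 and 288.5 (log2 -2.74, SE 0.47, adjusted p = 0.0239). Both calls were lost without WT replicate 2 (0.111 for Pax5 and 0.0928 for Bach2) and WT replicate 4 (0.0814 and 0.0520); Pax5 was also lost without WT replicate 1 (0.0915) or second-wave replicate 1 (0.0803), and Bach2 without second-wave replicate 2 (0.0588) or first-wave replicate 2 (0.0521).

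Basp1, a membrane-bound signalling protein and corepressor, was at 1.54, 7.66 and 4.45 against 37.2, 54.2, 52.6 and 46.5 (log2 -3.29, SE 0.55, adjusted p = 0.0239). Its fold change was -2.50 with 5 added before the logarithm and -3.45 with 0.5, and its call was lost in 6 of the 10 fits with 1 library left out (highest adjusted p = 0.105, without WT replicate 2).

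Inpp4b, Txk, Crebrf, Rnf145 and Ctdsp2 were also among the genes that fell. Inpp4b, a phosphatase that removes a PI3K product, was the 1 of 33 tested PI3K and RAS signalling genes that fell, and 0 rose (median -0.09). It was at 136, 143.2 and 249.5 against 343.1, 548.4, 452.2 and 400.1 (log2 -1.34, SE 0.25, adjusted p = 0.0488). Txk, a TEC-family kinase downstream of the T-cell receptor, was at 188.6, 109 and 132.9 against 496, 617.7, 323.2 and 333.4 (log2 -1.60, SE 0.29, adjusted p = 0.0319). Crebrf, a regulator of the CREB3 branch of the unfolded protein response, was at 561.1, 466.8 and 584.2 against 3246.9, 2861.6, 1070.3 and 1437.4 (log2 -1.86, SE 0.31, adjusted p = 0.0239). Rnf145, a sterol-responsive ubiquitin ligase, was at 1445.7, 1398.7 and 1080.4 against 4176.2, 4027.7, 2321.2 and 2333.3 (log2 -1.25, SE 0.22, adjusted p = 0.0319). For Crebrf and Rnf145 the WT group itself was split, with replicates 1 and 2 above replicates 3 and 4. Ctdsp2, a phosphatase of the RNA polymerase II tail, was at 797.4, 898.3 and 727.5 against 2133.7, 1590.4, 1540.7 and 1576.1 (log2 -1.07, SE 0.17, adjusted p = 0.0170). Without WT replicate 2 all 5 calls were lost. The adjusted p was then 0.181 for Inpp4b, 0.120 for Txk, 0.0867 for Crebrf, 0.119 for Rnf145 and 0.0526 for Ctdsp2. Of the 10 fits with 1 library left out, Inpp4b and Rnf145 each lost their call in 8. Txk lost its call in 7 of them, Crebrf in 5 and Ctdsp2 in 2.

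The remaining 4 higher genes changed less. Pnn, pinin, a nuclear protein of splicing and of cell contacts, was at 3668.9, 4686.1 and 4280.9 against 2299.0, 2057.7, 2150.5 and 2143.0 (log2 0.95, SE 0.14, adjusted p = 0.00822), with the first wave between them at 2940.1, 3118.6 and 3207.0. Ndufaf4, an assembly factor of respiratory complex I, was at 530.1, 379.1 and 431.8 against 147.9, 158.4, 237 and 186.8 (log2 1.30, SE 0.23, adjusted p = 0.0319). Zfp704, a zinc-finger protein, was at 6907.2, 5657.2 and 4917.0 against 2869.4, 3344.4, 3098.0 and 3159.9 (log2 0.89, SE 0.16, adjusted p = 0.0319). The gene 2900026A02Rik was at 232.7, 323.4 and 735.4 against 75.9, 65.01, 86.6 and 127.2 (log2 2.14, SE 0.38, adjusted p = 0.0319). Without WT replicate 2 the calls of Ndufaf4 (0.119), Zfp704 (0.0867) and 2900026A02Rik (0.119) were lost and that of Pnn held. Of the 10 fits with 1 library left out, Ndufaf4 lost its call in 8, and Zfp704 and 2900026A02Rik each in 7.

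Beside Acly itself, the metabolic lists showed 0 genes past the threshold. Of 23 tested genes of acetyl-CoA supply Acly alone fell and the median was 0.22. Acss2, the acetate-using enzyme, was at 186.7, 228.3 and 254.1 against 297.2, 284.6, 312.7 and 391.1 (log2 -0.53, SE 0.22, adjusted p = 0.335), and no second-wave library reached the WT range. Cholesterol synthesis (25 genes) had a median of -0.03, with Insig1, the sterol sensor partner, at -0.78 (adjusted p = 0.231). Fatty acid synthesis (21 genes) had a median of 0.04, with Hacd3, a dehydratase of long-chain fatty acids, at 0.89 (adjusted p = 0.0880) and Fasn, fatty acid synthase, at 0.61 (adjusted p = 0.265). Nucleotide and one-carbon enzymes (28 genes) had a median of 0.33, 22 positive, 6 with all second-wave libraries above WT (5.04% of all genes tested), and 0 past the threshold. In that list Mat2a, which makes S-adenosylmethionine, was at 2884.7, 2802.4 and 3173.6 against 944.8, 924.9, 2371.2 and 1830.2 (log2 1.08, SE 0.28, adjusted p = 0.152), with WT replicates 1 and 2 lowest. MYC targets and ribosome biogenesis (30 genes) had a median of 0.26, 8 genes with all second-wave libraries above WT (5.04% of all genes tested) and 0 past the threshold, with Gnl3, a nucleolar GTPase, at 0.66 (adjusted p = 0.108). Histone acetylation enzymes (29 genes) had a median of 0.06.

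Lists of the T-ALL program also had 0 genes past the threshold. NOTCH1 pathway genes (23 tested) had a median of 0.03, with Nrarp, a feedback inhibitor of NOTCH, at 921.2, 1247.8 and 944.7 against 216.7, 199, 863.6 and 705.3 (log2 1.35, SE 0.43, adjusted p = 0.221), where WT replicates 1 and 2 again were lowest, and Hes1, a NOTCH-driven repressor, at -0.77 (adjusted p = 0.202). The thymocyte program (28 genes) had a median of -0.02. Cytokine receptors and JAK-STAT genes (26 tested) had a median of -0.24, 19 negative, with Ifngr1, a chain of the interferon gamma receptor, at 536.1, 959.9 and 462.4 against 1446.0, 1855.2, 1172.6 and 1480.8 (log2 -1.24, SE 0.26, adjusted p = 0.0723). In all, 28 of the 34 lists had 0 genes past the threshold, with medians from -0.69 to 0.33.

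The second wave was also tested against the first KO wave, which was given the same agent. Of 14286 genes 17 passed (0.119%), 2 higher and 15 lower in the second wave. Both tests share the second-wave libraries, so the values are given side by side and not as 2 lines of evidence. Ccnd1 was 2.21 (SE 0.39, adjusted p = 0.0444) higher on the log2 scale than in the first wave, and Gpr83 2.13 (adjusted p = 0.0439). Syt14 was at -2.54 (adjusted p = 0.00199), Tubb2b at -2.0 (adjusted p = 0.00735), H2-Q7 at -1.67 (adjusted p = 0.00765) and Nlrc5 at -1.92 (adjusted p = 0.00912). In all, 13 genes passed both tests, also among them Ccng2, Gmfg, Sgip1, Trim30d, Tubb2a and Zfyve28. Acly did not differ past the threshold between the waves (log2 -0.34, SE 0.18, adjusted p = 0.860), nor did H2-D1 (-0.62, adjusted p = 0.651) or H2-K1 (-0.78, adjusted p = 0.562). For 30 of the 32 genes the second-wave libraries overlapped with neither group, the exceptions being H2-K1 and Pax5. The 32 were picked by their difference from WT, and the share of all genes apart from both groups was not counted. This test gave 1 gene without first-wave replicate 1 or replicate 2, 4 to 10 without second-wave replicate 1, first-wave replicate 3 or any of the 4 WT replicates, and 39 without second-wave replicate 3.

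**Figure D5:**
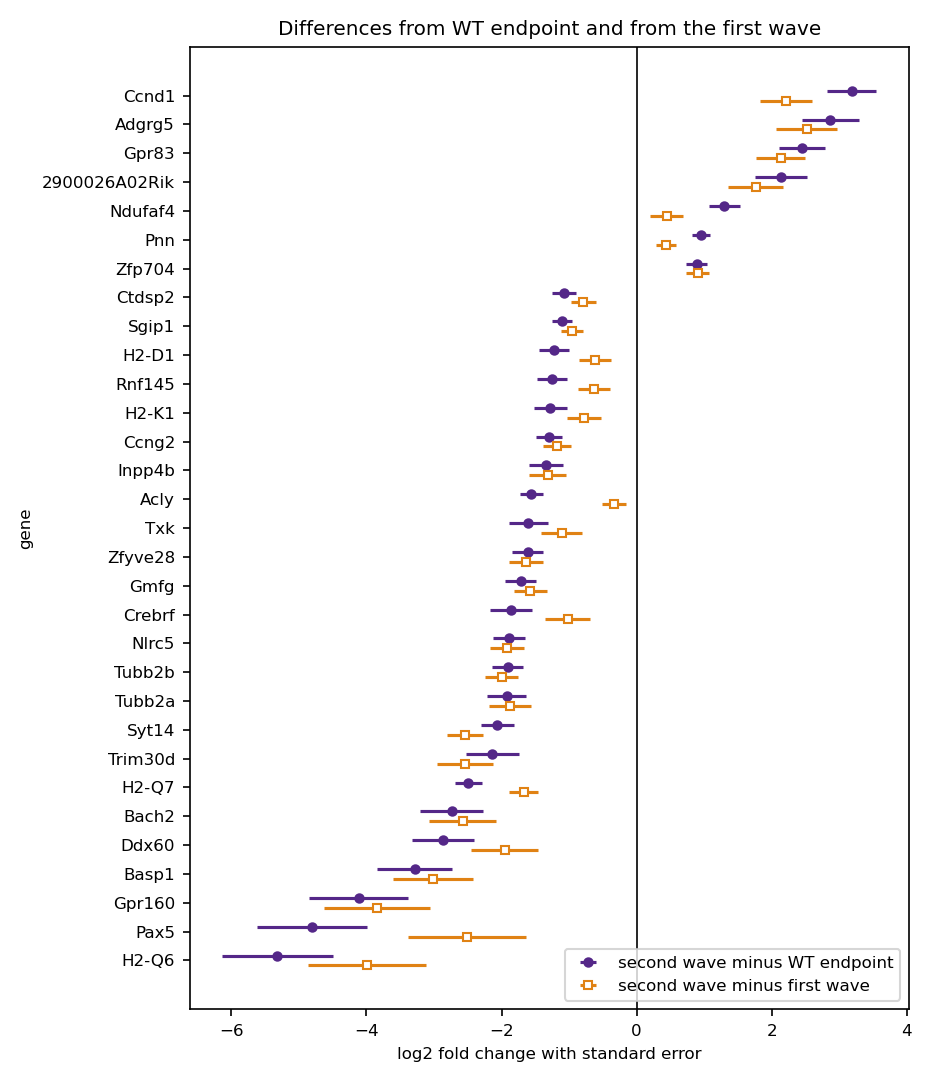
Log2 fold change with its standard error (x axis) of 31 of the genes past the threshold (y axis), second wave minus WT endpoint as filled circles and second wave minus first wave as open squares. Both sets share the second-wave libraries; Acly is at -1.56 against WT and -0.34 against the first wave, whereas Nlrc5 is at -1.89 and -1.92.

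Acute libraries (4 KO and 4 WT, collected 48 h after treatment of overtly leukemic mice) were normalized in another table, so only the signs and calls within each table are set side by side. All 32 genes were tested there and 7 passed, where 1794 of 14184 genes passed in all (12.6%). Of the 32, 8 had the same sign in both tables, and the share of all genes with the same sign was not counted. Acly (-0.78, adjusted p = 0.00266) and Adgrg5 (1.85, adjusted p = 0.0213) had the same direction as in the second wave. Nlrc5 (1.10, adjusted p = 0.0214), H2-Q6 (1.52, adjusted p = 0.0172), Zfyve28 (1.21, adjusted p = 0.00163), Sgip1 (0.34, adjusted p = 0.0449) and Gpr83 (-0.98, adjusted p = 0.0265) had the opposite one. B2m was at -1.41 (adjusted p = 0.000969) in the acute libraries, and did not pass in the second wave. Ccnd1 was at -0.30 (adjusted p = 0.665) in the acute libraries. Whether these differences between stages exceed their error was not tested.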

How the data were processed

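RNA-seq was made from leukemic spleens with strand-specific libraries, per the labels' protocols. The deposited values are DESeq-normalized counts (a count signal scaled per library by the authors); kallisto 0.44.0, DESeq and GRCm38 are named in the submitters' processing notes. Whole reads could not be recovered (55.1 to 63.6% of low survival values lay within 0.02 of a whole read), so no count test was run. Values were analysed as log2(value + 1) for genes with a mean of at least 10, with limma 3.58.1 (R 4.3.3; eBayes with trend) over all 10 survival libraries, two-sided, Benjamini-Hochberg adjusted over all genes at 0.05; the code was tested on simulated data. Acute libraries were fitted separately. Symbols were matched to GENCODE M21 (18953 of 18953).

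The members, gene lists and tests were chosen with earlier results of these data known. Named genes follow a rule: Acly, the largest changes past the threshold with no overlap and a mean of at least 100, genes near 0 in 1 group, the most abundant, and up to 4 of smallest p per list. H2-K1, Pax5, Gpr160, Basp1, Txk, 2900026A02Rik, B2m, Tap1, H2-Q4, H2-T24, Ccnd3 and Ms4a1 were named after their values were seen. Alternatives covered pseudocount, filter, normalization, variance model, libraries, replicate block, and a length, GC and abundance trend. A few results counted in the totals are not reported here.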

Additional observations from a re-analysis of the deposited data

Results flagged for a closer look

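Of the genes tested, 17 differed between the second and first KO waves by limma's test of that difference. Log2 values of second minus first wave were positive for Ccnd1 (2.21) and Gpr83 (2.13). Negative values included those of Cd200 (-3.84), Syt14 (-2.54), Trim30d (-2.54), Apol7e (-2.31), Tubb2b (-2.0), Nlrc5 (-1.92), Tubb2a (-1.88), H2-Q7 (-1.67), Gbp2 (-1.64), Zfyve28 (-1.64), Gmfg (-1.57), Hsd17b11 (-1.35), Ccng2 (-1.18) and Sgip1 (-0.96). Cd200, an immune checkpoint ligand, Apol7e, Gbp2 and Hsd17b11, a short-chain dehydrogenase, did not pass against WT. Cd200 was at 3.28, 8.75 and 21.5 normalized counts in the second wave and 163.5, 91.1 and 179.4 in the first. In WT it was at 22.1, 62.1, 55.4 and 86.3. The second wave lay below both groups, though only narrowly below WT (21.5 against 22.1), and the first wave lay above WT.

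Ctdsp2 had 1 WT library, replicate 1 at 2133.7 normalized counts, far from the other 3 (1540.7 to 1590.4); the gap was 0.916 of the group's range. The ratio that marks a library as far from the others is one that chance passes in about 1 in 20 groups.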

How the results depend on the processing

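Of the 32 genes past the threshold against WT, Acly, Ccnd1, H2-Q7, Nlrc5, Syt14 and Tubb2b were called under each of 22 alternatives, and the direction of all 32 held in each. The count was 14 with eBayes without trend, 13 with only the 7 second-wave and WT libraries, 15 to 140 with 1 library left out, 14 without WT replicates 1 and 2, and 127 without second-wave replicate 3 and WT replicate 3; the last alternative was chosen after seeing the data. Under pseudocounts 0.5 and 5 it was 30 and 36, under quantile normalization 38, with no filter 42 and with a mean of at least 50 it was 28. Against the first wave the count of 17 was 1 with eBayes without trend (0 shared with the 17), 1 to 39 with 1 library left out, 25 without WT replicates 1 and 2, and 35 without second-wave replicate 3 and WT replicate 3. The acute count of 1794 became 693 with eBayes without trend and 985 to 1634 with 1 library left out, also alternatives added later. Acly stayed past the threshold under each alternative (highest adjusted p = 0.0338). Same-numbered libraries did not pair (correlations of -0.03 to 0.09); with the replicate block 34 genes were called against WT (21 shared) and 2 against the first wave. With 3 and 4 libraries per group and 1 shared estimate of the spread, small differences are not detectable at this depth.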
